A study of Mus musculus with 4 samples.

Results

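The genes described here encode the proteins of the cytosolic ribosome, measured in whole spinal cord of mice at postnatal day 8. They were chosen by name: every symbol of the form Rpl or Rps with a number and an optional letter, together with Rpsa, Rplp0, Rplp1 and Rplp2, and without symbols ending in -ps. The rule found 84 of the 22096 gene symbols in the deposited tables, 51 with large subunit names and 33 with small subunit names, in 96 of 28107 transcript rows. Of these, 81 reached a mean of 1 FPKM (fragments per kilobase of transcript, scaled to library size, thus a level per transcript length) and were tested. The other 3, Rpl3l, Rpl10l and Rpl39l, are paralogs that lay under that mean.

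The 2 control libraries came from animals labelled Chd7f/+; Olig1-cre, with a floxed and an unfloxed copy of Chd7, and the 2 conditional knockout (cKO) libraries from animals labelled Chd7f/f; Olig1-cre, with floxed copies only. Both groups therefore carried the Cre recombinase, which the Olig1 locus drives in the oligodendrocyte lineage, and both are given as of mixed strain background. CHD7 uses ATP to move nucleosomes on chromatin. The labels do not say whether each library came from a separate animal, so the p-values measure the spread between these libraries, which may be technical. Because whole cord was sequenced, fewer cells of a type and less RNA per cell cannot be told apart.

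A ribosome consists of a small subunit that decodes the messenger RNA and a large subunit that joins amino acids, and each holds ribosomal RNA and one copy of nearly every ribosomal protein. The messenger RNAs of these proteins start with a short run of pyrimidines, the 5′ terminal oligopyrimidine or TOP motif, through which mTOR and LARP1 control their translation. They are among the most abundant transcripts of most cells, and their genes have left many processed copies in mammalian genomes. A myelinating cord makes much new protein and membrane, and mTOR signaling in oligodendrocytes is known to be needed for normal myelination.

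Start-site windows of 6 genes, 3 for each subunit, are shown as examples of the pyrimidine run, picked from the 19 genes whose annotated start lies in one. Each window holds 15 bases before and 15 from the annotated start on, on the strand of the gene. Capitals mark the run of C and T over the start, from its first C on.
Rplp2: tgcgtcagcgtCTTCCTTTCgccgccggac
Rpl35: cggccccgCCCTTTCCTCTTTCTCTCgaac
Rpl28: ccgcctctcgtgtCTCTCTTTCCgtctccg
Rps18: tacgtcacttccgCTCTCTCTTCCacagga
Rps10: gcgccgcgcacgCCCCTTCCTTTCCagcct
Rps6: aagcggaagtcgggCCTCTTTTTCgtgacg
They come from RefSeq promoter windows on GRCm38.p6, at chr7:141447636-141447665 (plus strand) for Rplp2, chr2:39005117-39005146 (minus strand) for Rpl35, chr7:4792950-4792979 (plus strand) for Rpl28, chr17:33955651-33955680 (minus strand) for Rps18, chr17:27635230-27635259 (minus strand) for Rps10 and chr4:86857353-86857382 (minus strand) for Rps6. Such windows, from 250 bases before to 50 after the start, were found for 63 of the 84 genes under their RefSeq symbols (75 windows). A C followed by at least 6 pyrimidines covered the start in 19 of these 75 windows (25.3%), against 4.25% of all 32851 windows. Between 50 bases before and 50 after the start, such a run was present anywhere in 82.7% of the ribosomal protein windows and in 40.8% of all windows. The letters CTTTCC, which can lie inside such a run, were found there in 29.3% against 4.69%. CCGGAAG, the letters of an Ets-type motif, was found on either strand of the whole window in 36.0% against 8.86%. A match describes letters in a window and is no proof of a start or a bound factor.

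Relative sequencing depth, from the ratio of coverage to FPKM, was 1.0 in control 2, 2.07 in control 1, 2.22 in cKO 1 and 3.19 in cKO 2. Over all 12913 genes tested, limma called 533 higher and 845 lower in cKO at an adjusted p of 0.05, which is 10.7% in either direction, and the median log2 difference was -0.0028. Chd7 itself (mm9 chr4:8618068-8793956) was listed at 3.52 and 3.12 FPKM in the control pair against 2.53 and 3.38 FPKM in cKO, a log2 difference of -0.13 ± 0.16 (SE, limma adjusted p = 0.657). Its 1 row spans the whole transcript, so it does not measure the floxed exons, and Cre is active in only part of the cord's cells. The cord's cell types were present by their markers, such as Rbfox3 for neurons at 28.4 to 43.4 FPKM and Mog for oligodendrocytes at 85.3 to 249 FPKM.

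Together the 84 genes held 6.60% of the summed FPKM in control 1, 7.53% in control 2, 8.26% in cKO 1 and 7.03% in cKO 2. The share was thus highest in a cKO library and lowest in a control library, but the other control lay above the other cKO library, so the groups overlapped. Counting the rows of other symbols that lie on the same loci, described further on, the shares were 7.14%, 8.11%, 8.91% and 7.59% in the same order. On that count the large subunit genes summed to 1.37, 1.35, 1.33 and 1.35 times the FPKM of the small subunit genes, so the balance between the subunits stayed within a narrow range while the level itself moved.

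For what follows, 13 genes were set apart after their values had been seen: 6 whose loci are shared with another symbol, the 6 paralogs Rpl3l, Rpl7l1, Rpl10l, Rpl22l1, Rpl39l and Rps27l, and Rps4y2. The remaining 71 conventional genes lie on 18 chromosomes and had a median level of 293 FPKM in control 1, 335 in control 2, 388 in cKO 1 and 309 in cKO 2. Their levels spread widely, from 29.2 to 901 FPKM in control 1, but the middle part was narrow, with quartiles at 232 and 343 FPKM in that library.

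**Figure D1:**
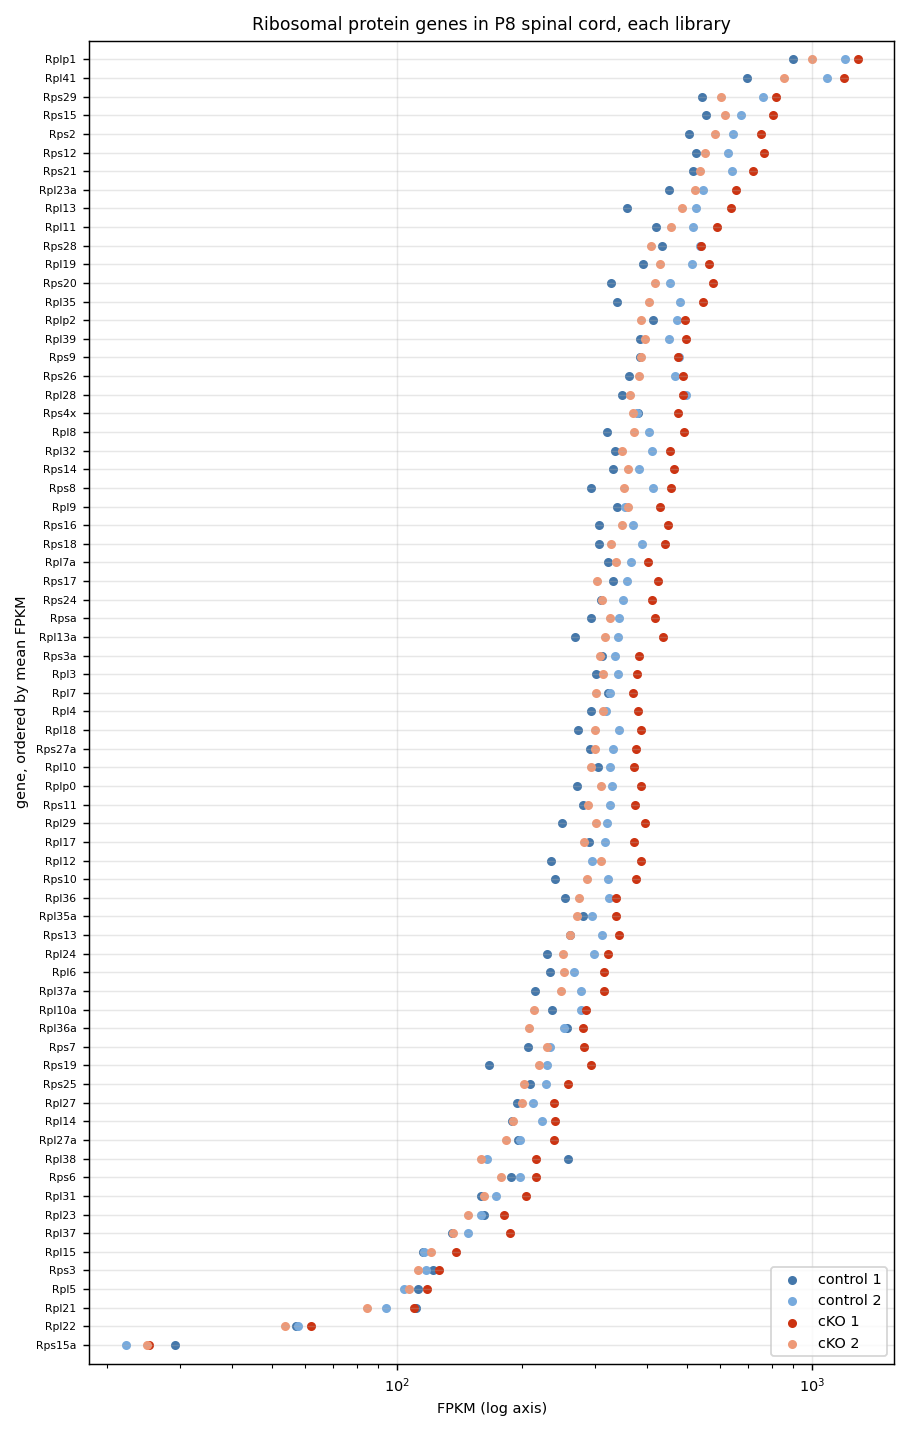
FPKM of 70 of the 71 conventional ribosomal protein genes on a log axis, 1 row per gene ordered by mean, with 1 point for each of the 4 libraries. In most rows cKO 1 lies farthest right and control 1 or cKO 2 farthest left, from Rplp1 at 901 to 1290 FPKM down to Rps15a at 22.1 to 29.2 FPKM.

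The most abundant was Rplp1, one of the acidic stalk proteins of the large subunit that recruit the elongation factors. It stood at 901 and 1202 FPKM in control 1 and control 2, at 1290 and 1000 FPKM in cKO 1 and cKO 2, and ranked 8 among all genes tested. Control 2 and cKO 1 were high and control 1 and cKO 2 low, so the groups overlapped, and the log2 difference was 0.13 ± 0.30 (SE, limma adjusted p = 0.842). Rplp2, its partner in the stalk, stood at 413 and 473 against 494 and 387 FPKM. Rplp0, which anchors the stalk to the subunit, stood at 271 and 329 against 387 and 310 FPKM. Both showed the same order of libraries within each group, and neither differed beyond the spread (limma adjusted p = 0.977 and 0.627).

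Rpl41, which encodes a very short basic peptide of the large subunit, was second at 698 and 1089 FPKM in control 1 and 2 against 1195 and 854.5 FPKM in cKO 1 and 2. Below, the 4 values of a gene are given in this order. Control 1 was the lowest here and cKO 1 the highest, and the 2 controls differed by more (log2 0.64) than the groups did (0.21 ± 0.30, SE, limma adjusted p = 0.722). The next 3 were small subunit genes. Rps29 stood at 544 and 761 against 818.5 and 604 FPKM. Rps15 stood at 555 and 674 against 805 and 617 FPKM. Rps2 stood at 504 and 645 against 755.5 and 585 FPKM. In each of the 3, control 2 lay above control 1 and cKO 1 above cKO 2, with overlapping groups.

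At the low end of the 71, the deposited transcript models were long. Rps15a, on a model of 5134 bases, stood at 29.2 and 22.1 against 25.2 and 24.9 FPKM. Rpl22, on 2040 bases, stood at 57.1 and 57.6 against 62.1 and 53.7 FPKM. Control 2 lay below control 1 in Rps15a, and exceeded it by log2 0.013 in Rpl22. FPKM divides by the length of the deposited model.

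The main feature of the family was a common order of libraries that did not follow genotype. In 63 of the 71 genes control 2 lay above control 1 and cKO 1 above cKO 2, and in none were both reversed. Over all genes tested these shares were 33.5% and 26.7%. Every one of the 71 had cKO 1 above cKO 2, and 66 had their highest value in cKO 1. The full order control 1, cKO 2, control 2, cKO 1 from low to high was found in 44 genes, and 14 more differed from it only in that cKO 2 lay below control 1.

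**Figure D2:**
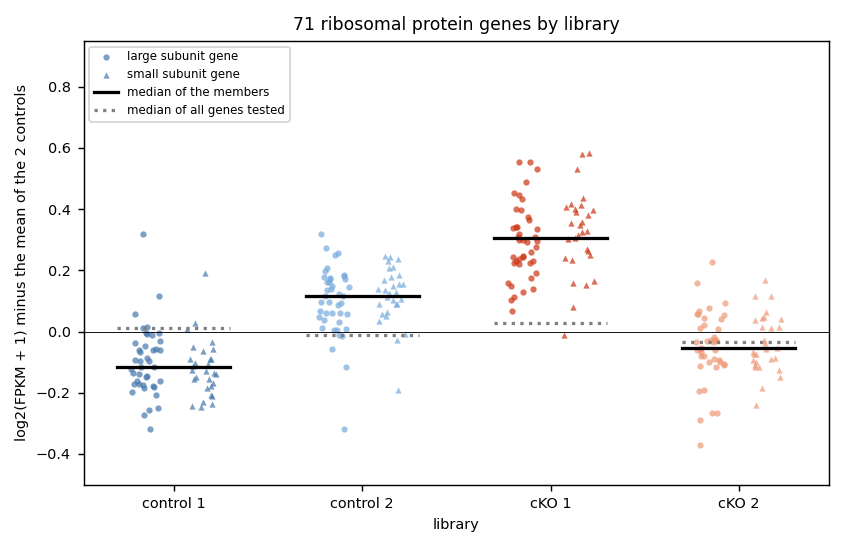
Log2(FPKM + 1) of each of the 71 genes minus its mean in the 2 controls, by library, with circles for large and triangles for small subunit genes. Solid lines mark the medians of the 71 (-0.12, 0.12, 0.31 and -0.05) and dotted lines those of all genes tested.

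In numbers, the median gene of the 71 was 0.23 higher in control 2 than in control 1 and 0.36 higher in cKO 1 than in cKO 2 on the log2 scale. Its difference between cKO and control was 0.12, smaller than either difference within a group. Both subunits gave close values. For the 42 large subunit genes the 3 medians were 0.21, 0.35 and 0.11, and for the 29 small subunit genes 0.25, 0.37 and 0.13. A comparison of the higher library of each genotype, cKO 1 against control 2, gave a median of 0.19, and the lower pair, cKO 2 against control 1, gave 0.06.

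Against that spread, the comparison of cKO with control called 1 of the 81 genes tested higher, Rps4y2, where 4.13% of all genes were called in that direction. None was called lower, where the background was 6.54%. Without adjustment, 5 of the 81 had p under 0.05, against 24.2% of all genes: Rps4y2 and 4 genes on shared loci, among them Rpl30, Rpl34 and Rps23. Among the 71 conventional genes no p was below 0.0971 (Rpl12, limma adjusted p = 0.306). The median log2 difference of the 81 was 0.13, with 70 above and 11 below 0, against a median of -0.0028 over all genes. That median depended on single libraries: it was -0.05 without cKO replicate 1 and 0.31 without cKO replicate 2, 0.03 without control replicate 1 and 0.24 without control replicate 2. It was -0.0038 when the libraries were scaled to the same quantiles. Control 2 is also the shallowest library and control 1 the one with the most meningeal transcripts, and the part of either in these values was not tested.

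**Figure D3:**
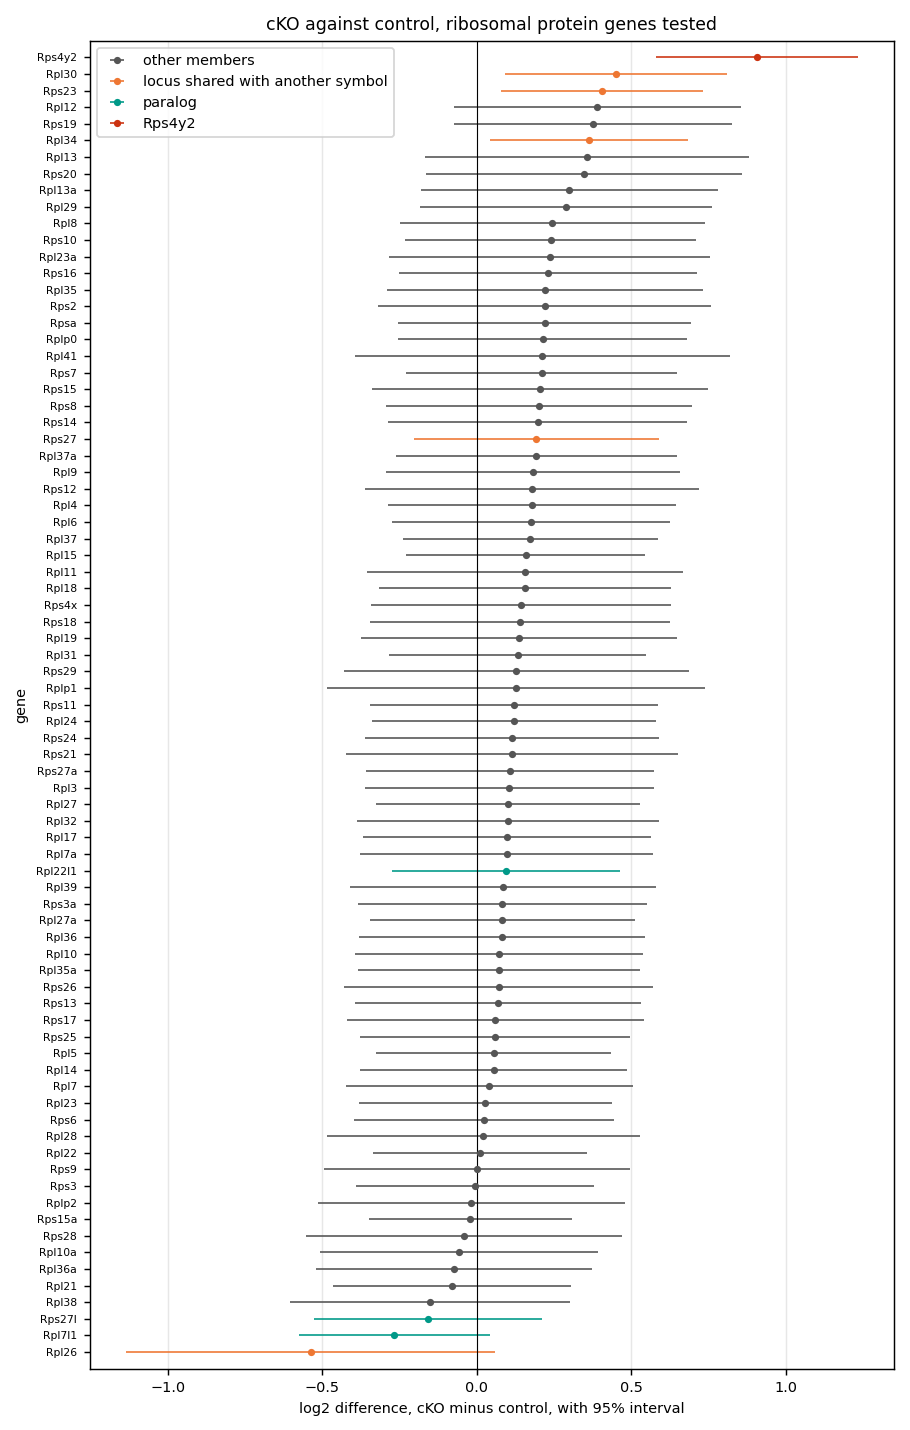
Log2 difference between cKO and control for 79 of the 81 genes tested, with 95% intervals from limma, coloured by kind of gene. Rps4y2 lies at 0.91, and the intervals of the conventional genes cross 0 and lie between -0.60 and 0.88.

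These intervals say what the 4 libraries could show. All 71 conventional genes had a 95% interval that included 0, and none reached a log2 difference of 1 in either direction. Their standard errors ran from 0.16 to 0.30 with a median of 0.23, against 0.16 for the median gene of all. Differences within these intervals were not detectable, and the intervals do not show that the genes were alike in both groups.

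The groups did not overlap in 7 of the 81 genes with higher cKO values, where 24.3% of all genes were in that class, and in 1 with lower values, against 29.3% of all genes. Of the 7, 3 were conventional genes, and the others were Rps4y2 and 3 genes on shared loci, among them Rpl34 and Rps23. Rpl12, part of the base of the stalk, stood at 235.5 and 296 against 387.5 and 309 FPKM, a log2 difference of 0.39 ± 0.23 (SE). Rpl9 stood at 339 and 354 against 429 and 361 FPKM. Rpl15 stood at 115 and 116 against 139 and 120 FPKM. In all 3 the gap between the groups was small beside the distance between the cKO libraries, and none was called (limma adjusted p = 0.306, 0.691 and 0.67).

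Some ribosomal proteins have known roles outside the ribosome or in disease, and their values followed the same order. Rps19, the gene most often mutated in Diamond-Blackfan anemia, stood at 166 and 230 against 293 and 220 FPKM (log2 difference 0.38 ± 0.22, SE, limma adjusted p = 0.31). Rpl13 stood at 359 and 525 against 638 and 485 FPKM, and Rps20 at 327 and 456 against 578 and 419 FPKM. Rpl5 and Rpl11, which with 5S ribosomal RNA can bind Mdm2, stood at 112 and 104 against 118 and 107 FPKM and at 421 and 515 against 590 and 457 FPKM. Rps6, the protein that S6 kinase phosphorylates, stood at 188 and 198 against 216 and 178 FPKM. In each of these except Rpl5, control 2 lay above control 1 and cKO 1 was the highest. These 6 genes were picked for a known role or the size of their difference after their values had been seen.

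The strength of the library order fell with the length of the transcript model, and it did so in other genes too. Among the 71, the median difference of control 2 over control 1 was 0.298 for the 26 genes of 300 to 600 bases, 0.213 for the 33 of 600 to 1200 bases and 0.119 for the 9 of 1200 to 2000 bases. The 2 genes of up to 5000 bases had a median of -0.051, and the longest gene, Rps15a, stood at -0.383. Among tested genes outside the family, the same classes gave 0.285 (202 genes), 0.177 (1198 genes) and 0.089 (2447 genes), and those over 5000 bases gave -0.162 (2145 genes). Between cKO 1 and cKO 2 the family's 3 medians were 0.39, 0.364 and 0.28, and those of the other genes 0.312, 0.226 and 0.144. For cKO against control, the class of 300 to 600 bases gave 0.12 in the family and 0.121 in the other genes, that of 600 to 1200 bases 0.132 and 0.069, and that of 1200 to 2000 bases 0.159 and 0.047. In the latter 2 classes the family's median thus lay above that of the other genes. The 71 genes are short, with a median of 725 bases against 2826 over all genes tested, and the library order was present in other genes of their length as well. The part of length in the family's order was not tested beyond these medians.

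**Figure D4:**
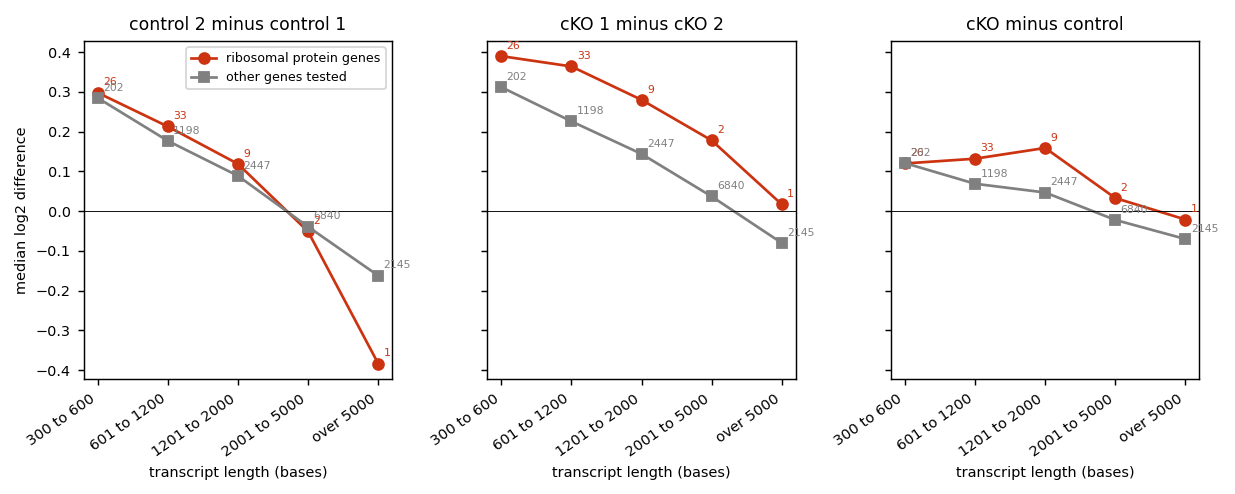
Median log2 difference by class of transcript length for control 2 minus control 1, cKO 1 minus cKO 2 and cKO minus control, with circles for the 71 ribosomal protein genes, squares for the other genes tested and the number of genes beside each point. Both lines fall with length in the 2 panels within groups, and the cKO minus control medians are 0.12 and 0.121 in the shortest class, 0.132 and 0.069 in the next and 0.159 and 0.047 in the third.

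Rpl38, a protein of the large subunit known for its part in the translation of Hox messenger RNAs, went against the order, with 258 and 165 against 216 and 159 FPKM. It was the only conventional gene with a row under 300 bases, which the gene sums leave out. That row, of 285 bases and without an OK status in every library, stood at 341 and 692 against 698 and 529 FPKM. Summed over its 3 rows, Rpl38 stood at 599 and 857 against 914.5 and 688 FPKM, in the order of the other genes.

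Rps4y2 was the one gene called. It rose from 22.4 and 24.6 FPKM in control to 46.9 and 43.0 FPKM in cKO, and both cKO libraries exceeded both controls by more than 1.5-fold, as in 0.991% of all genes. No ribosomal protein gene passed that rule of size in the other direction, where 2.84% of all genes did. The log2 difference was 0.91 ± 0.16 (SE, limma adjusted p = 0.000121). Despite its name it lies on chromosome 6 (mm9 chr6:148303178-148304118), within the span of Tmtc1, and RefSeq lists it now as Rps4l, a transcribed pseudogene. Tmtc1 stood at 11.5 and 9.94 against 9.66 and 10.7 FPKM. Within 1 Mb on either side, 11 other genes were tested and none was called by limma, with 3 at an unadjusted p under 0.05 and a lowest adjusted p of 0.118.

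Rps4x, on the X chromosome, encodes the protein of the small subunit that Rps4y2 is named after. It stood at 382 and 378 against 476 and 370 FPKM (log2 difference 0.14 ± 0.24, SE, limma adjusted p = 0.772). The transcript of Rps4y2 shares 14.9% of its stretches of 50 bases with 1 other annotated gene, and none with Rps4x. The call of Rps4y2, which has a single row, was lost in 3 alternatives at the same difference: its limma adjusted p was 0.185 when transcript rows were tested singly, 0.0664 when rows of every length were summed and 0.268 with no filter on low values.

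Among the other paralogs, the pairs differed widely in level. Rpl3 stood at 302 to 380 FPKM, and its muscle paralog Rpl3l at 0.171 to 0.595 FPKM. Rpl10 stood at 294 to 373 FPKM, and Rpl10l, an intronless paralog of the male germ line, was listed at 0 in all 4 libraries. Rpl39 stood at 385.5 to 496 FPKM and Rpl39l at 0.0513 to 0.12 FPKM. The tissue-restricted copies were thus near 0 in the cord while their partners were abundant.

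The other 3 paralogs passed the minimum mean and were tested. Rpl22l1 stood at 68.4 and 79.9 against 88.2 and 70.9 FPKM, above Rpl22 itself in every library and in the common order. Its model has 477 bases against 2040 for Rpl22. Of its stretches of 50 bases, 57.3% occurred in transcripts of other annotated genes, against 5.19% for Rpl22. Rps27l, known as a p53 target, stood at 50.2 and 71.4 against 59.5 and 48.3 FPKM. Rpl7l1, which takes part in ribosome assembly, stood at 15.2 and 16.3 against 13.9 and 12 FPKM and was the 1 gene with lower, non-overlapping cKO values (log2 difference -0.27 ± 0.15, SE, limma adjusted p = 0.293). None of these was called.

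The 6 genes on shared loci were listed below nearly all conventional genes, the 5 named here between 3.35 and 26.9 FPKM, and the tables hold a second symbol on the same stretch of the genome to which most of the FPKM is given. Rps27 (mm9 chr3:90016589-90017570) was listed at 4.36 and 4.82 against 8.36 and 3.35 FPKM, while Gm9846 on the same locus was listed at 459 and 525 against 607 and 487 FPKM. Summed, the locus stood at 463 and 530 against 615 and 490 FPKM, within the range of the conventional genes and in their common order. Rpl26 with Gm15772, Rpl30 with Gm12191, Rpl34 with Rpl34-ps1 and Rps23 with Gm15450 likewise reached that range when summed, each with control 2 above control 1 and cKO 1 above cKO 2. Of the 6 second rows, 4 lacked an OK status in every library and stay out of the main tests. All 6 enter the locus sums, whatever their status, and the fit of these sums given below.

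The small share listed under the familiar symbol varied irregularly. Rpl26 was listed at 19.7 and 3.53 against 4.83 and 6.65 FPKM, and its log2 difference of -0.54 turned to 0.56 without control replicate 1. Its locus sum stood at 265 and 302 against 366 and 284 FPKM. Differences of the locus sums were 0.19 for Rpl26, 0.08 for Rpl30, 0.0033 for Rpl34, 0.28 for Rps23 and 0.15 for Rps27 on the log2 scale. Under the familiar symbols they were -0.54, 0.45, 0.36, 0.41 and 0.19 in the same order. No locus sum was called, with limma adjusted p from 0.436 to 0.996.

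Similar copies elsewhere in the genome also bear on the levels. For the 71 genes, a median of 49.3% of the stretches of 50 bases in their transcripts occurred in transcripts of other annotated genes, and in 35 genes the share was 50% or more. It was 93.3% for Rpl9 and 92.1% for Rpl10. How the authors placed reads that match several sites is not given in the sources used here.

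Transcript rows gave no further call. Of 89 rows of these genes that were tested, limma called none, against 0.129% of all 15494 rows, and 2 had an unadjusted p under 0.05, those of Rps4y2 and a row of Rpl30. Some genes are listed with several isoforms. For Rpl19 the main row stood at 384 and 474 against 523 and 395 FPKM, and a second row at 6.62 in control 1 but 39.7, 42.0 and 34.9 FPKM in control 2, cKO 1 and cKO 2. Rps24, which has alternative 3′ exons, had its main row at 287 and 320 against 378 and 285 FPKM and its other 2 rows between 8.06 and 17.3 FPKM. A minor row of Rps27a stood at 10.98 and 18.4 against 13.4 and 8.67 FPKM beside a main row of 281 and 313 against 362 and 291 FPKM. The split between isoforms is an estimate, and its error is not in the columns used here.

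Genes whose products work with the ribosome followed the same order. Fau encodes a ubiquitin-like protein fused to one of the small subunit, and stood at 329 and 451 against 519.5 and 386 FPKM. Gnb2l1, now Rack1, a scaffold on the small subunit, stood at 173 and 192 against 246 and 189 FPKM. Naca and Btf3, the nascent chain complex at the exit tunnel, stood at 127 to 156 FPKM and 131 to 155 FPKM. Nacad, a relative of Naca, stood at 15.9 to 20.2 FPKM. All 6 genes of the list had control 2 above control 1 and cKO 1 above cKO 2, and limma called none (none had an unadjusted p under 0.05), the median log2 difference being 0.10.

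The mitochondrial ribosome, a separate machine encoded by other nuclear genes, showed the pattern as well. Of its 76 Mrpl and Mrps genes, 59 (77.6%) had control 2 above control 1 and cKO 1 above cKO 2, and the median log2 difference between cKO and control was 0.11. Limma called 1 of the 76 higher and none lower, against 4.13% and 6.54% of all genes. Mrps10 rose from 13.6 and 14.9 to 23.7 and 20.4 FPKM (log2 difference 0.60 ± 0.16, SE, limma adjusted p = 0.00849).

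Other TOP messenger RNAs had a weaker form of it. The 21 genes tested, among them elongation factors and subunits of initiation factor 3, had a median log2 difference of 0.11, and 13 showed both within-group differences in the family's direction. Eef2, the translocase, stood at 384 and 424 against 546 and 457.5 FPKM, and Eif3f at 76.2 and 97.9 against 114 and 93.1 FPKM. Eef1a1, which brings aminoacyl transfer RNA to the ribosome, stood at 1171 and 1106 against 1307 and 1127 FPKM, so its controls were ordered the other way. Limma called none of these 21, none of the 18 elongation and termination genes (median 0.03) and none of the 37 initiation genes (median 0.03). Of all these, 1 initiation gene had an unadjusted p under 0.05, Eif3k, at 64.4 and 86.0 against 116 and 91.7 FPKM.

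**Figure D5:**
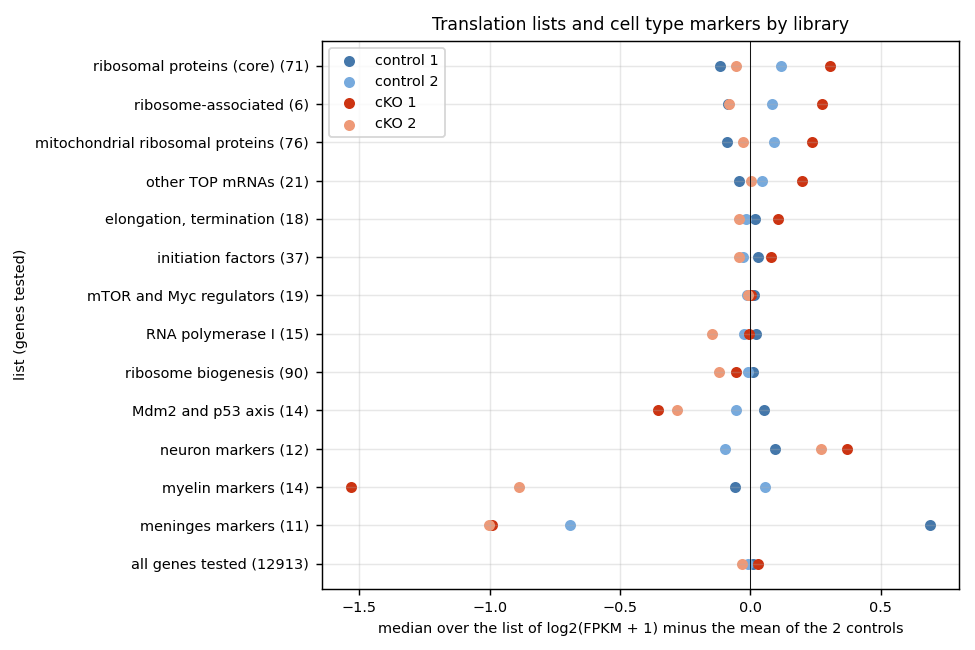
Median over each list of log2(FPKM + 1) minus the mean of the 2 controls, 1 point per library, with the number of genes tested in brackets. The ribosomal protein, ribosome-associated, mitochondrial ribosomal and other TOP lists place cKO 1 highest and control 2 next, whereas the biogenesis list places cKO 1 and cKO 2 at -0.05 and -0.12.

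Genes that build ribosomes did not share the order. Of 90 biogenesis genes, 34 (37.8%) had both within-group differences in the family's direction, near the 33.5% of all genes, and 68 lay below 0 between cKO and control with a median of -0.08. Of all genes, 6521 of 12913 lay below 0. The library order also varied with transcript length, and neither this list nor the mitochondrial one was set against genes of its own length. The part of length in how these lists differ was not tested. Limma called 2 of the 90 lower and none higher, against 6.54% and 4.13% of all genes. Noc3l, which acts in large subunit maturation, fell from 4.29 and 4.79 to 2.48 and 2.82 FPKM (log2 difference -0.60 ± 0.15, SE, limma adjusted p = 0.00693). Ltv1, a small subunit export factor, fell from 9.59 and 8.47 to 6.44 and 6.13 FPKM (log2 difference -0.46 ± 0.15, SE, limma adjusted p = 0.0412). Sbds, the Shwachman-Diamond gene that readies the large subunit, stood at 28.5 and 32.1 against 21.8 and 23.7 FPKM (limma adjusted p = 0.105).

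Of 15 RNA polymerase I genes, which transcribe ribosomal RNA, limma called none (3 had an unadjusted p under 0.05, where 24.2% of all genes did), 11 lay below 0 and the median was -0.08. Polr1a, the largest subunit, stood at 4.83 and 4.88 against 3.62 and 3.75 FPKM (limma adjusted p = 0.175). Of 19 mTOR and Myc regulators, limma called 1 lower and none higher, against 6.54% and 4.13% of all genes. Rictor, which defines the second mTOR complex, fell from 8.59 and 8.02 to 4.39 and 5.74 FPKM (log2 difference -0.62 ± 0.15, SE, limma adjusted p = 0.00517). Mtor at 10.8 to 13.5 and Myc at 3.65 to 5.47 FPKM had overlapping groups. Larp1 stood at 19.9 and 19.3 against 21.9 and 20.3 FPKM, without overlap but not called (limma adjusted p = 0.749). Of the 19 genes, 3 were higher and 5 lower in cKO without overlap, against 24.3% and 29.3% of all genes.

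The list of the Mdm2 and p53 axis, which free ribosomal proteins can engage, had 14 genes tested with a median of -0.28. Of these, 9 lay below 0 and 5 above. Limma called 1 higher and 1 lower, against 4.13% and 6.54% of all genes. Cdkn1a, the cell cycle inhibitor p21, rose from 8.74 and 7.23 to 17.6 and 19.1 FPKM (log2 difference 1.11 ± 0.15, SE, limma adjusted p = 1.96e-06). Mdm4, an inhibitor of p53, fell from 13.3 and 11.2 to 6.56 and 8.91 FPKM (log2 difference -0.61 ± 0.16, SE, limma adjusted p = 0.00861). Mdm2 stood at 13.4 and 13.0 against 9.24 and 10.8 FPKM (limma adjusted p = 0.115). Trp53, which encodes p53 itself, was also lower, at 10.9 and 13.5 against 8.53 and 8.93 FPKM (limma adjusted p = 0.0616). Cdkn1a is also a gene of differentiation and stress outside this axis. Without cKO replicate 1, the calls of Mrps10, Noc3l, Ltv1, Rictor and Mdm4 were lost (limma adjusted p = 0.247, 0.187, 0.247, 0.297 and 0.424), and that of Cdkn1a was kept. Without control replicate 1, Ltv1, Mrps10 and Mdm4 were lost (0.192, 0.0614 and 0.0645), and Ltv1 was lost without cKO replicate 2 (0.18), with the replicate block (0.114), without a trend (0.0591) and under median-of-ratios scaling (0.0707). Under TPM or quantile scaling Ltv1 and Mdm4 were lost too, as were Rictor under TPM and Noc3l under quantile scaling (0.0545 to 0.0911). With all rows summed the 5 other than Cdkn1a were lost, and with no filter on low values all 6.

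Cell type markers differed between the same libraries. Of 12 neuron markers, 12 had their highest value in cKO 1. Limma called 1 of the 12 higher (Slc32a1, limma adjusted p = 0.0349) and none lower, against 4.13% and 6.54% of all genes. The log2 difference of Slc32a1 was 0.58, or 0.33 without cKO replicate 1. The medians of the neuron markers relative to the controls' mean were 0.10, -0.10, 0.37 and 0.27 in control 1, control 2, cKO 1 and cKO 2. Their summed FPKM was 2092, 2039, 2991 and 2514. All 14 myelin markers lay below 0 between cKO and control, and limma called 13 of them lower, against 6.54% of all genes. Their medians were -0.06, 0.06, -1.53 and -0.89 and their sums 17188, 19461, 6940 and 10952 FPKM. All 11 meningeal markers lay below 0 too, and limma called 9 of them lower, against the same 6.54%. They summed to 289.7 FPKM in control 1 and to 70.8, 40.6 and 46.8 in the others, led by Ptgds at 161 FPKM in control 1 and 16.2 in control 2. Schwann cell markers summed to 113 FPKM in control 1 and to 29.5, 21.4 and 21.3 in control 2, cKO 1 and cKO 2. Blood markers summed to 7.52, 239, 21.4 and 31.4 FPKM in control 1, control 2, cKO 1 and cKO 2, so control 2 stood apart in them. cKO 1, with the highest ribosomal protein level, thus also had the highest neuron and lowest myelin level, and control 1, with the lowest, the most meningeal and Schwann cell transcripts. Control 2 and cKO 2 did not keep this match. Control 2, with a median of 0.12 in the conventional ribosomal protein genes, had the lowest neuron (-0.10) and highest myelin (0.06) medians. cKO 2, at -0.05 in those genes, had a neuron median of 0.27. The part of these cell types in the ribosomal protein values was not tested.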

How the data were processed

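Values are FPKM per transcript row, deposited in the layout that Cufflinks uses, per the file headers. The submitters' processing notes name CASAVA, TopHat, Cufflinks, Cuffdiff and the build mm9, without versions. From the deposited coverage column, a signal of mean depth per base, only the relative depth was taken. Trizol extraction of total RNA and a TruSeq RNA kit are stated per the labels' protocols. FPKM are no counts, so no count model was fitted.

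Rows of 300 bases or more with an OK status in all 4 libraries were summed per symbol, and genes with a mean of at least 1 FPKM were tested on log2(FPKM + 1) with limma 3.58.1 in R 4.3.3 (genotype only, moderation with a trend, 36.3 prior and 2 residual degrees of freedom, Benjamini-Hochberg adjustment over all genes, threshold 0.05). Differences are on that scale, which understates changes of low genes. Standard errors are mostly pooled over genes. Members and lists were chosen with earlier results of these data known. Genes named were those called, the 5 highest and 5 lowest, those whose groups did not overlap, the paralog pairs, the stalk genes, Rpl38, up to 4 per list by p, and others named for their role. Older symbols were matched through accessions (96.0% of rows matched RefSeq). Shared stretches of 50 bases were sought in annotated GRCm38 transcripts. Coordinates are on mm9 unless GRCm38.p6 is named. Some of the genes so chosen were left out of the text.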

Additional observations from a re-analysis of the deposited data

How the results depend on the processing

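Rps4y2 was called in every fit of gene sums except those with all rows summed and with no filter on low values, and it was not called when transcript rows were tested singly. The count of ribosomal protein genes higher in cKO, 1 as reported, was 2 with a minimum mean of 5 FPKM, 3 with robust moderation, 2 with a crossed replicate block (added after seeing the data), and 0 with all rows summed, with no filter on low values and with transcript rows tested singly; leaving out 1 library at a time gave 1 to 3. The count lower in cKO, 0 as reported, was 1 with a minimum mean of 5 FPKM and 1 with the replicate block, and 0 to 1 with 1 library left out. Every gene called only in an alternative (among them Rpl26, Rpl30, Rpl34 and Rps27) is one of the 6 on shared loci. Rpl26 reversed, to 0.56, without control replicate 1, and ran from -1.64 to 0.56 with 1 library left out. The median difference, 0.13, ran from -0.05 to 0.31 with 1 library left out. The count over all 9 lists of translation, ribosome assembly, mitochondrial ribosome, mTOR and Myc, and Mdm2 and p53 genes, 6 as reported, was 15 with the crossed block, 3 under TPM and under quantile scaling, 1 with all rows summed, 0 with no filter and with transcript rows singly, and 1 to 10 with 1 library left out. The cause of these shifts was not tested. Same-numbered libraries did not deviate together (correlation -0.241 over all genes, -0.608 over the family). This cannot tell whether the numbers pair them, because the differences within both groups followed transcript length across genes. The replicate block left the median at 0.13. The FPKM carry no counts, and control 2, the shallowest at a relative depth of 1.0 against 2.07 or more, limits the precision of the control mean.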
